A study of Arabidopsis thaliana with 30 samples.

Results

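The chromatin accessibility of 10 genes of RNA-directed DNA methylation was followed in Arabidopsis thaliana: NRPD1, NRPE1, RDR2, DCL3, AGO4, AGO6, AGO9, CLSY1, CLSY3 and IDN2. A peak of an ATAC-seq list was taken as a member when it overlapped 1 of these genes or the 1000 bp on either side of it. The 30 lists held 319 such peaks among 734458 peaks in all, from 7 in hda6 replicate 2 and Col-0 stem replicate 1 to 15 in gcn5 replicate 1 and met1-9 replicate 1, with a median of 11 per list.

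RNA-directed DNA methylation is the plant pathway that places new cytosine methylation at transposons and repeats by means of small RNAs. RNA polymerase IV, whose largest subunit is NRPD1, is brought to chromatin with the help of CLSY proteins and makes short transcripts that RDR2 turns into double-stranded RNA and DCL3 cuts into small interfering RNAs. AGO4, AGO6 and AGO9 carry these RNAs to transcripts of RNA polymerase V, whose largest subunit is NRPE1, and IDN2 helps to turn this pairing into methylation by DRM2. The DNA glycosylase ROS1 works the other way and removes methylated cytosines.

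In ATAC-seq nuclei are treated with Tn5, a transposase that cuts accessible DNA and tags the ends, so that a peak marks open DNA. Accessible DNA near a gene is a common site of regulatory sequence, but a peak does not measure expression. The study had 15 groups of 2 libraries. Col-0, the wild-type accession, was sampled as root and shoot of 2-week-old plants and as stem of 4-week-old plants, and 12 mutant genotypes were sampled as shoot of 2-week-old plants. The single mutants were ros1-4 (ROS1), met1-9 (MET1, the maintenance methyltransferase of CG sites), nrpd1-3 (NRPD1), gcn5 (GCN5, a histone acetyltransferase), hda6 (HDA6, a histone deacetylase) and sdg2-4 (SDG2, a histone H3K4 methyltransferase). In rdd-2 and drdd several DNA demethylase genes are affected, by the usual meaning of these names, and nrpd1-3, gcn5, hda6 and sdg2-4 were also combined with ros1-4. All plants were grown in the same light and temperature regime. The labels do not say whether the libraries of a group came from separate plants, so the spread within a group may be technical.

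The shortest list, Col-0 stem replicate 1, held 17315 peaks and the longest, met1-9 replicate 1, 38392. Depth is unknown, since read counts are not part of these files. As a sign of it, peaks with a fold over background of 4 to 5 had a median −log10 q of 11.4 in sdg2-4 replicate 2 and of 62.6 in gcn5 replicate 2, and of 13.9 and 17.4 in Col-0 shoot, so that weaker peaks could enter the gcn5 lists. Peak names give the organ of met1-9 as leaf where the labels say shoot, and the names in the stem lists carry the words merge and addData. Serial numbers in the peak names of root, stem, met1-9, gcn5, hda6, sdg2-4 and the doubles of the last 3 lie apart from those of Col-0 shoot. The sample records of rdd-2 and drdd are also numbered apart from those of all other libraries. What these numbers stand for is not given in the sources used here, and in those comparisons preparation and tissue or genotype cannot be told apart. Markers fitted the tissue labels in part. Root lacked elements of the shoot genes LHCB1.3, LHCB2.1 and GLK1, while the shoot gene RBCS1A had peaks in all 30 libraries. At the root genes RHD6 and PIN2 root had elements that Col-0 shoot lacked, while the root genes CASP1 and SCR had peaks in all 30 libraries. All 4 stem markers had an element in stem that Col-0 shoot lacked, and 3 of these 4 genes also had one in root. None of the 4 had an element in both stem libraries and in no root library. The IRX10 element of stem was also listed in both shoot libraries of rdd-2, drdd, met1-9 and gcn5. Only 1 of the 30 libraries had a summit inside it, so its other listings come from peaks with a summit elsewhere.

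Of the 10 genes, RDR2, AGO4, AGO6 and IDN2 had a peak in all 30 libraries, and 1 gene, NRPE1, had none in any. CLSY1 had a peak in 28 libraries, DCL3 in 26, NRPD1 in 25, CLSY3 in 23 and AGO9 in 15. Among 27432 protein-coding genes 51.2% had a peak in all 30 lists, 8.73% in none and 40.1% in 1 to 29 lists. Peaks covered the most DNA at AGO6, from 915 to 1581 bp per library with a median of 1116 bp, and at IDN2, with a median of 843 bp, against medians of 308 bp at RDR2 and 165 bp at CLSY3. Among 21 other genes of the pathway 7 had a peak in all libraries and 0 in none, with a median of 28 libraries, and among 13 other small RNA genes these numbers were 6, 0 and 29.

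**Figure D1:**
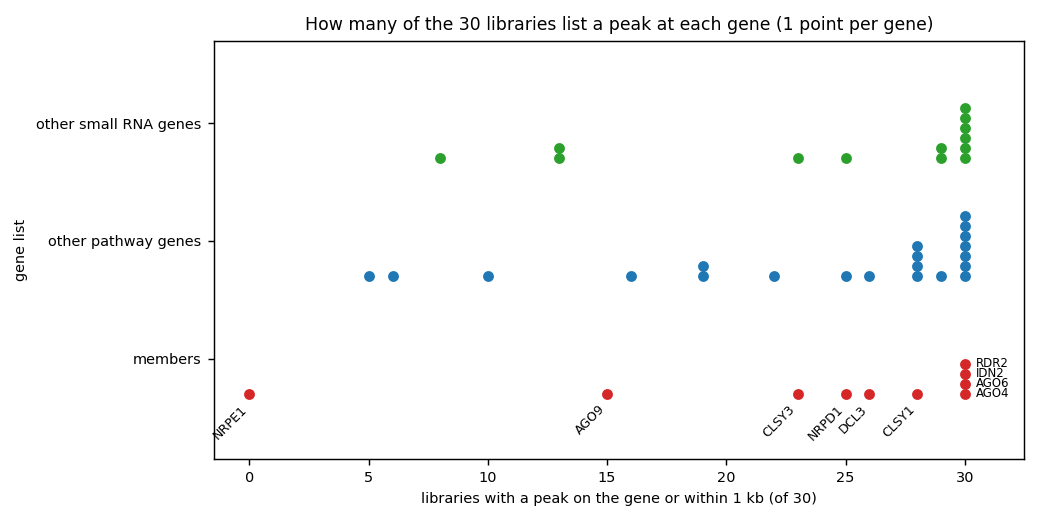
Each point is 1 gene, placed by the number of the 30 libraries that list a peak on it or within 1000 bp (x axis), for the 10 pathway genes, 21 other pathway genes and 13 other small RNA genes (y axis). NRPE1 stands at 0, AGO9 at 15, and RDR2, IDN2, AGO6 and AGO4 at 30.

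To compare libraries, summits were widened to elements of 301 bp, and a library has an element when 1 of its peaks overlaps it. At 42611 elements both libraries of some group had a peak, 12881 of them in all 30 libraries. The pathway genes held 19 elements, of which 17 met this condition. The other 2 were an element at the higher-coordinate end of NRPD1 with a peak in 5 libraries and an AGO4 element with a peak in 1 library. Positions are on TAIR10, and since the gene table gives no strand, an element is placed by its distance from the lower- or higher-coordinate end of the gene. Folds are the authors' own values over local background, and they describe a peak within its list and show no change between lists.

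**Figure D2:**
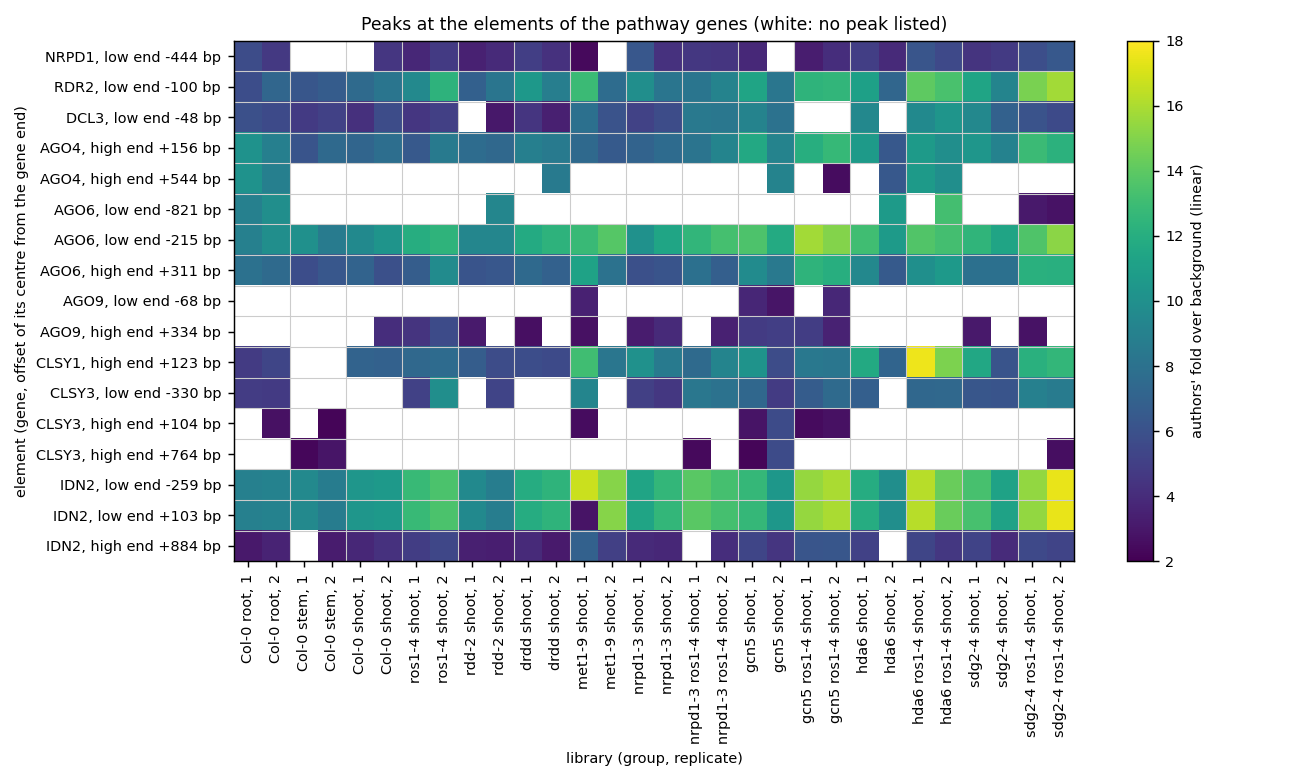
Each row is 1 of the 17 elements, named by gene and by the distance of its centre from a gene end, each column is 1 library, and the colour is the authors' linear fold over background, with white where no peak is listed. Elements of RDR2, AGO4, AGO6 and IDN2 run through all 30 columns, and gaps fall in both stem columns at NRPD1 and CLSY1 and in both gcn5 ros1-4 columns at DCL3.

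The polymerase genes differed. NRPD1 (AT1G63020) had an element outside the gene, with its edges 594 to 294 bp below the lower-coordinate end (chromosome 1, 23354091 to 23354391) and no other protein-coding gene within 1410 bp of its centre. It was a weak one: the fold ran from 2.40 to 6.41 with a median of 4.54 in the 25 libraries that listed it, and the median peak ranked at percentile 27.1 of its own list. In Col-0 it had folds of 5.70 and 4.66 in root, no peak in either stem library, and a fold of 4.54 in shoot replicate 2 with no peak in shoot replicate 1. Root peaks were also the widest of all, 560 and 532 bp, against 182 bp in Col-0 shoot replicate 2. Both nrpd1-3 libraries had the peak, with folds of 6.34 and 4.30, so it was listed in the mutant of the gene itself. A peak beside the gene does not check the allele. The other libraries without it were gcn5 replicate 2 and met1-9 replicate 2.

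NRPE1 (AT2G40030), for the largest subunit of RNA polymerase V, had no peak on the gene or within 1000 bp in any of the 30 lists. Below the gene the nearest peak edge was 1090 to 3514 bp away, with a median of 1177.5 bp, and above it 2321 to 2567 bp. The closest peak edge therefore lay just past the limit of 1000 bp. No difference between tissues or genotypes could be read at this gene.

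The CLSY genes were absent from different libraries. CLSY1 (AT3G42670), a chromatin remodeller that brings RNA polymerase IV to many of its sites, had an element across the higher-coordinate end of the gene (chromosome 3, 14760602 to 14760902). It was listed in 28 libraries and missing only from both stem libraries. Its folds were 4.76 and 5.32 in root and 7.11 and 6.97 in Col-0 shoot, and over all shoot libraries the lowest was 5.60, the median 8.29 and the highest 17.6. The highest folds were those of hda6 ros1-4, 17.6 and 14.8, where the peaks ranked at percentiles 95.2 and 92.2 of their lists. In hda6 the folds were 11.7 and 7.16, and in ros1-4 7.43 and 7.62. In met1-9 they were 13.1 and 8.30, so the replicates of hda6 and of met1-9 overlapped each other's range.

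CLSY3 (AT1G05490), a relative of CLSY1, had an element 480 to 180 bp below its lower-coordinate end (chromosome 1, 1618024 to 1618324), with no other protein-coding gene within 6334 bp of its centre. The peak was narrow and fixed in place: widths ran from 145 to 229 bp, and the summits of 20 of 21 libraries lay within 5 bp of their median. Folds ran from 4.56 to 9.89 with a median of 6.85. Root had folds of 4.84 and 4.72, while both stem and both Col-0 shoot libraries had no peak. Among the mutants it was listed in both libraries of ros1-4 (5.12 and 9.89), nrpd1-3 (5.05 and 4.56), gcn5 (7.31 and 4.77), sdg2-4 (6.28 and 6.14) and all 4 doubles with ros1-4. It was missing from both drdd libraries, rdd-2 replicate 1, hda6 replicate 2 and met1-9 replicate 2. All 4 elements within 25000 bp of it that at least 25 of the other 28 libraries carry were listed in both Col-0 shoot libraries.

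At the other end of CLSY3 were a pair of weak elements, 1 across the higher-coordinate end (chromosome 1, 1623443 to 1623743) and 1 lying 614 to 914 bp beyond it (chromosome 1, 1624103 to 1624403). Their median folds were 2.75 over 7 libraries and 2.51 over 6. The first was listed in gcn5 with folds of 2.86 and 5.67 and in gcn5 ros1-4 with 2.50 and 2.75, and singly in root replicate 2, stem replicate 2 and met1-9 replicate 1. The second was listed in both stem libraries with 2.27 and 2.92 and in both gcn5 libraries with 2.19 and 5.67. It was also listed singly in nrpd1-3 ros1-4 replicate 1 and sdg2-4 ros1-4 replicate 2. Its centre lay 666 bp from the neighbouring gene NTMC2T2.1, so it cannot be given to CLSY3 alone. In gcn5 replicate 2 a single peak of 1567 bp covered both elements, so its fold of 5.67 cannot be given to either of them alone. When the summit had to lie in the element, neither was called in gcn5.

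**Figure D3:**
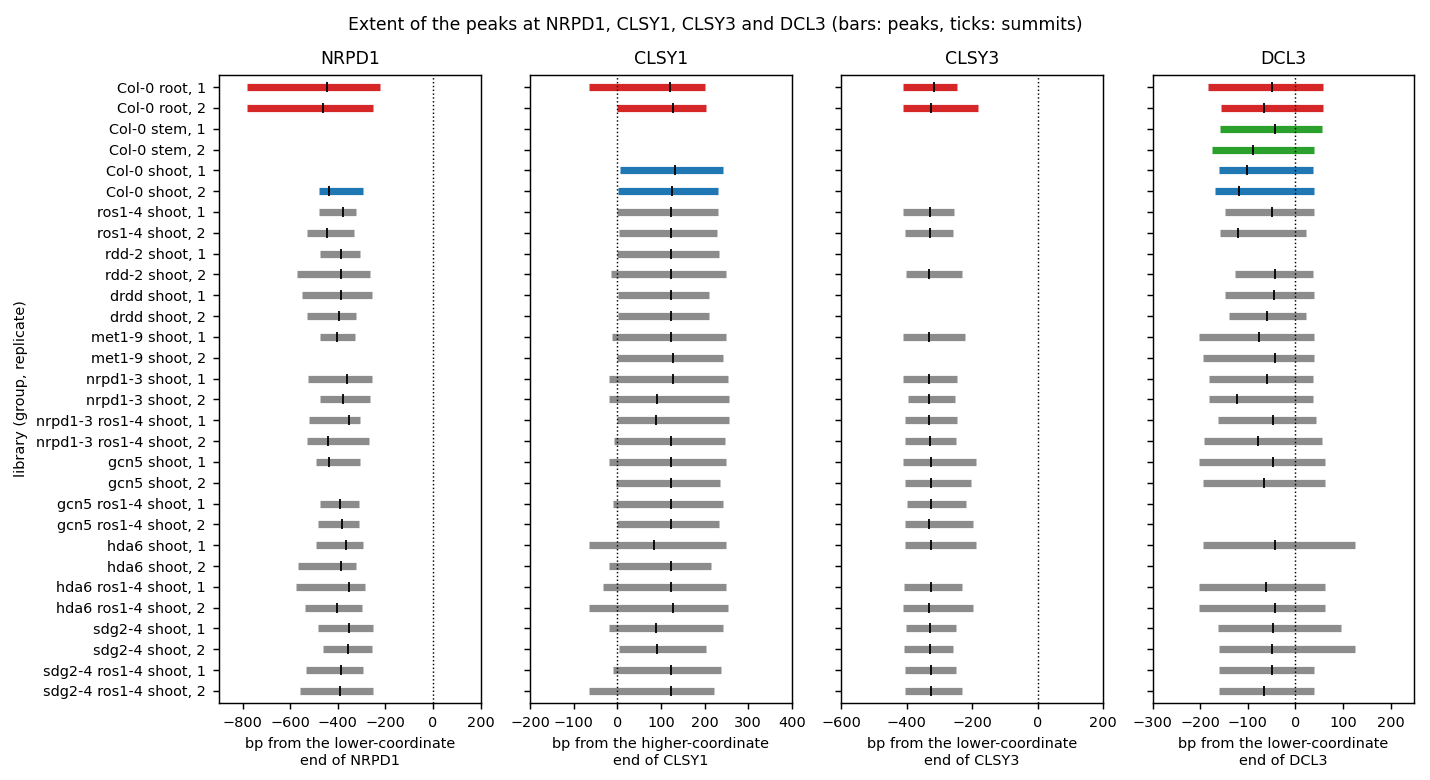
Bars are the listed peaks and ticks their summits, in bp from the named end of NRPD1, CLSY1, CLSY3 and DCL3 (x axis), with 1 row per library (y axis; root red, stem green, Col-0 shoot blue, mutants grey). Stem has no bar at NRPD1, CLSY1 or CLSY3, Col-0 shoot has no bar at CLSY3, and gcn5 ros1-4 has none at DCL3.

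Of the enzymes that make the small RNAs, RDR2 (AT4G11130) showed no gap. Its element (chromosome 4, 6780199 to 6780499) lay over the lower-coordinate end of RDR2 and also reached the neighbouring gene AT4G11120, so the peak cannot be given to 1 of the 2 genes. Folds ran from 5.78 to 15.8 with a median of 9.17. Root had folds of 5.78 and 7.30, stem 6.28 and 6.67 and Col-0 shoot 7.50 and 8.23, and sdg2-4 ros1-4 had the highest, 14.8 and 15.8.

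DCL3 (AT3G43920) had an element over its lower-coordinate end (chromosome 3, 15753189 to 15753489), with folds from 3.04 to 10.4 and a median of 5.84. The 4 libraries without it were both of gcn5 ros1-4, hda6 replicate 2 and rdd-2 replicate 1. The gcn5 libraries had it with folds of 9.17 and 8.02, and the ros1-4 libraries with 4.51 and 5.02. In Col-0 the folds were 5.94 and 5.58 in root, 4.74 and 5.06 in stem and 4.21 and 5.70 in shoot. Peaks with a fold of 4 to 5 had a median −log10 q of 33.1 and 52.9 in gcn5 ros1-4 and of 15.9 and 12.7 in ros1-4. The 3 elements within 25000 bp that at least 25 of the other 28 libraries carry were listed in both gcn5 ros1-4 libraries. By a rule set after these values were seen, an element present in at least 25 of the other 28 libraries was absent from both gcn5 ros1-4 libraries in 26 of 18955 cases, 0.137%, and DCL3 was 1 of them among 9 elements of the pathway genes that could be.

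AGO4 (AT2G27040) had an element just beyond its higher-coordinate end (chromosome 2, 11542397 to 11542697) in all 30 libraries, with folds from 6.16 to 12.9 and a median of 8.73. Beside it a further element (chromosome 2, 11542785 to 11543085) was listed in both root libraries and in no stem or Col-0 shoot library. The root peaks there were the wide ends of the constant peak. They reached 616 and 722 bp beyond the gene in root, against 231 and 308 bp in stem and 236 and 283 bp in Col-0 shoot. Both root summits lay 156 bp beyond the gene, and those of stem and Col-0 shoot at 93 to 94 bp. The folds of these root peaks were 10.2 and 8.92. Both hda6 ros1-4 libraries also reached the further element, as did 1 library each of drdd, gcn5 and hda6, and only gcn5 ros1-4 replicate 2 had a peak of its own there, with a fold of 2.56.

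AGO6 (AT2G32940) showed the same form. Its constant element lay 365 to 65 bp below the lower-coordinate end (chromosome 2, 13971551 to 13971851), with folds from 8.66 to 15.8, a median of 12.1 and a median rank at percentile 97.3 of the list, the highest of the pathway genes. A further element lay 971 to 671 bp below that end (chromosome 2, 13970945 to 13971245). Root had it in both libraries, with folds of 8.98 and 9.90, and stem and Col-0 shoot in none. The root peaks started 831 and 771 bp below the gene end and were 1010 and 946 bp wide, while Col-0 shoot peaks started at 521 and 506 bp and were 713 and 675 bp wide, and stem peaks started at 506 and 481 bp. All root summits lay over the constant element, so the folds of 8.98 and 9.90 belong to it. The libraries with a summit inside the further element were the 2 of sdg2-4 ros1-4, whose separate peaks of 154 and 149 bp had folds of 3.12 and 2.77. In hda6 replicate 2, hda6 ros1-4 replicate 2 and rdd-2 replicate 2 a wide peak like those of root reached it.

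Root peaks were wider than both Col-0 shoot peaks in both libraries at 5 of the 9 elements of the pathway genes listed in all 4, against 40.5% of all such elements. The 5 were 2 of AGO6 and 1 each of AGO4, RDR2 and DCL3. The third AGO6 element (chromosome 2, 13977682 to 13977982) was in all 30 libraries with a median fold of 7.89, but it overlaps the neighbouring gene COP1, a regulator of light responses, and cannot be given to AGO6 alone.

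**Figure D4:**
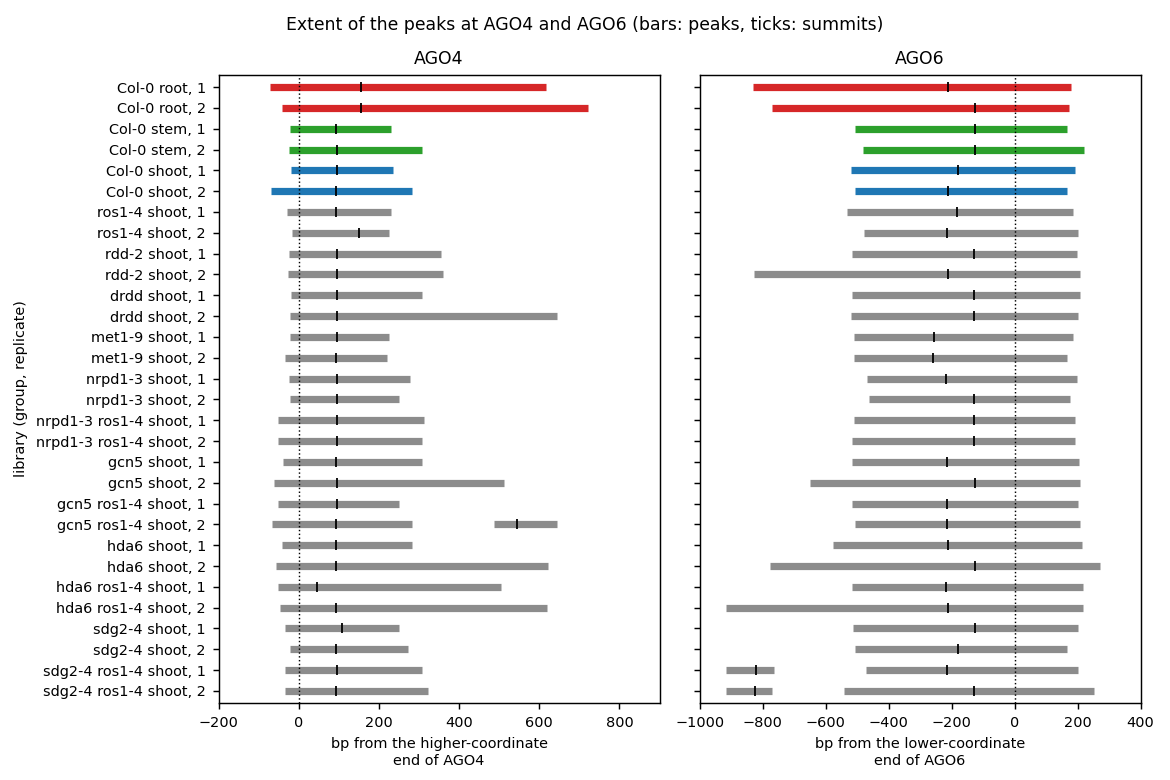
Bars are the listed peaks and ticks their summits, in bp from the higher-coordinate end of AGO4 and from the lower-coordinate end of AGO6 (x axis), with 1 row per library (y axis; root red, stem green, Col-0 shoot blue, mutants grey). Root bars reach 616 and 722 bp at AGO4 and start at -831 and -771 bp at AGO6, beyond the stem and Col-0 shoot bars, while their summits stay in the part that all libraries share.

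AGO9 (AT5G21150), known for its role in ovules and the germ line, had 19 peaks in 15 libraries, the fewest of the 3 Argonaute genes of the pathway, against 32 at AGO4 and 62 at AGO6. An element over its lower-coordinate end (chromosome 5, 7192021 to 7192321) was listed in both gcn5 libraries with folds of 3.75 and 2.89, in gcn5 ros1-4 replicate 2 with 3.78 and in met1-9 replicate 1 with 3.48. All 4 summits lay within 1 bp of each other. No Col-0 library listed it in root, stem or shoot. The other element (chromosome 5, 7198565 to 7198865) was listed in 15 libraries, all shoot, with folds from 2.69 to 5.67, and lay inside the neighbouring gene LARP1a. Its listing in shoot cannot be set against root or stem, since only 1 of the 2 Col-0 shoot libraries had it, with a fold of 4.12.

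IDN2 (AT3G48670), an RNA-binding protein of the step after RNA polymerase V, had its main element 409 to 109 bp below its lower-coordinate end (chromosome 3, 18030260 to 18030560) in all 30 libraries. Folds ran from 8.74 to 17.4 with a median of 12.5, and the lowest were 8.96 and 9.12 in root, 9.54 and 8.74 in stem and 9.57 and 8.81 in rdd-2. A neighbouring element over the end of the gene (chromosome 3, 18030622 to 18030922) belonged to the same wide peak in every library except met1-9 replicate 1, which listed a separate peak with a fold of 2.84 there. The third element (chromosome 3, 18034799 to 18035099) overlapped the gene GAMMA CAL2 and was listed in 27 libraries, missing from stem replicate 1, hda6 replicate 2 and nrpd1-3 ros1-4 replicate 1.

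For comparisons of groups, an element was called gained when both test libraries listed it and no reference library did, and lost when only the reference libraries listed it, both of them. An exact permutation test of 2 libraries against 2 cannot give a p below 0.333, so these calls are descriptions with no test. Each count of calls at the pathway genes stands beside the share of all elements called, among those that could be called in that direction. All comparisons with Col-0 shoot use the same 2 Col-0 libraries.

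Root set against Col-0 shoot gave no lost element at the pathway genes, 0 of 9 against 10.6% of all elements, and 3 gained ones of 6, against 35.4%. The gained elements were that of CLSY3 below the gene and the further elements of AGO4 and AGO6 described above, of which only that of CLSY3 was a peak with its own summit. When a peak counted only where its summit lay within the element, 1 element was gained. Root plants and shoot plants had the same age. Peaks with a fold of 4 to 5 had a median −log10 q of 23.2 and 21.1 in root, against 13.9 and 17.4 in Col-0 shoot. The median width of all peaks was 349 and 366 bp in root, against 326 and 338 bp in Col-0 shoot. What part depth has in the root count was not tested.

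In stem, CLSY1 was the 1 lost element of 9 when set against Col-0 shoot, against 11.9% of all elements, and the outer CLSY3 element was the 1 gained of 6, against 12.4%. The count of both was 1 with lists of equal length or with a −log10 q of at least 5, as the outer CLSY3 element was then not called, and 4 without Col-0 shoot replicate 1. The stem plants were also older, and organ cannot be told apart from age here. Root set against stem gave 1 lost element of 8, the outer one of CLSY3, against 8.26%, and 5 gained of 7, against 33.2%: NRPD1, CLSY1, CLSY3 below the gene, and the further elements of AGO4 and AGO6. By the rule set after these values were seen, 2 of 9 elements of the pathway genes, those of NRPD1 and CLSY1, were absent from both stem libraries and present in at least 25 of the other 28, against 8.59% of all elements. Of the elements within 25000 bp that at least 25 of the other 28 libraries carry, stem listed 8 of 9 around NRPD1 and 1 of 1 around CLSY1 in both libraries.

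The demethylase mutants had 1 call at these genes, in ros1-4, and with so few elements the counts do not stand apart from the shares of all elements. No element was lost in ros1-4, rdd-2 or drdd, 0 of 9 in each, against 3.15%, 2.20% and 2.68% of all elements. In ros1-4 the CLSY3 element below the gene was gained, 1 of 6 against 8.49%, and in rdd-2 and drdd 0 of 6 were, against 8.28% and 8.54%. The ros1-4 count was 3 without Col-0 shoot replicate 2, when NRPD1 and the AGO9 element in LARP1a also met the rule, and 0 when a peak had to cover at least 150 bp of the element. The CLSY3 peak of ros1-4 replicate 2 was 145 bp wide and could not meet that setting. Counts in rdd-2 were 2 gained without rdd-2 replicate 1, 1 lost without rdd-2 replicate 2 and 1 gained without Col-0 shoot replicate 2. In drdd the count was 1 gained without drdd replicate 1 or Col-0 shoot replicate 2.

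Loss of the maintenance methyltransferase in met1-9 gave 0 of 9 lost elements against 1.37% and 0 of 6 gained ones against 40.4% of all elements. Without met1-9 replicate 2, whose list held 26663 peaks against 38392 in replicate 1, the count was 3. In nrpd1-3, which lacks RNA polymerase IV, 0 of 9 were lost against 2.82% and 1 of 6 was gained against 7.80%, again CLSY3 below the gene. That count was 3 without Col-0 shoot replicate 2 and 0 when a peak had to cover at least 150 bp. The CLSY3 peak of nrpd1-3 replicate 2 was 145 bp wide and could not meet that setting.

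Among mutants of histone modifiers, gcn5 had the most calls, with 0 of 9 lost against 0.344% and 4 of 6 gained against 44.8% of all elements. The 4 were the 3 elements at CLSY3, of which the outer one cannot be given to CLSY3 alone, and the AGO9 element over the lower-coordinate end. With lists of equal length 1 was gained. When the summit had to lie in the element, 2 were gained, CLSY3 below the gene and the AGO9 element. By a rule set after these values were seen, 22.8% of the 6610 elements listed in at most 3 of the 28 libraries outside gcn5 were listed in both gcn5 libraries. The AGO9 element was the 1 of them at the pathway genes. No group other than gcn5 had it in both libraries, so it was kept as an element only through gcn5. Its listing in both gcn5 libraries was thus fixed by the choice of elements. The CLSY3 element across the higher-coordinate end was likewise kept only through gcn5 and gcn5 ros1-4. The median −log10 q at folds of 4 to 5 was also higher in gcn5, 52.5 and 62.6 against 13.9 and 17.4 in Col-0 shoot. Of the 4 root markers PIN2, CASP1 and SCR had a gained element in gcn5 too, with folds from 1.95 to 4.13. So had LHCB1.3 and GLK1 of the 4 shoot markers and IRX10 of the 4 stem markers, against 29.1% of protein-coding genes. Only 1 library had a summit inside this LHCB1.3 element, and only 1 inside the IRX10 element shared with stem. PIN2, CASP1, SCR and IRX10 also had a gained element in the 4 against 4 comparison below, against 11.5% of protein-coding genes. What part depth or the marker elements have in the gcn5 count was not tested. In hda6 0 of 9 were lost against 3.30% and 0 of 6 gained against 8.71%. Without hda6 replicate 1 there were 4 calls, 2 lost and 2 gained. There was 1 gained without hda6 replicate 2 or Col-0 shoot replicate 2, and 1 lost without Col-0 shoot replicate 1. In sdg2-4 0 of 9 were lost against 3.05% and 1 of 6, CLSY3 below the gene, was gained against 6.86%, with 2 calls without Col-0 shoot replicate 2. The CLSY3 gains in ros1-4, nrpd1-3, gcn5 and sdg2-4 all rest on its absence from the same 2 Col-0 shoot libraries.

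Crossing with ros1-4 gave 4 libraries with and 4 without each of nrpd1-3, gcn5, hda6 and sdg2-4. Here an element was called only when all 4 libraries of 1 side and none of the other had it. No element of the pathway genes was lost, 0 of 9 in each, against 0.322% for nrpd1-3, 0.0496% for gcn5, 0.149% for hda6 and 0.362% for sdg2-4. For gcn5 1 of 5 was gained, the CLSY3 element across the higher-coordinate end, against 20.5%, and that element was not called with lists of equal length or by its summit. Only groups with gcn5 had it in both libraries, so it was kept as an element only through them. For the other alleles 0 of 5 were gained, against 3.38% for nrpd1-3, 4.54% for hda6 and 2.64% for sdg2-4. The hda6 count was 1 gained without hda6 replicate 1 and 1 lost without Col-0 shoot replicate 1. The gcn5 count was 2 gained without gcn5 ros1-4 replicate 1.

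The ros1-4 allele itself was tested over 5 backgrounds, with 10 shoot libraries that carry it against 10 that do not. By Fisher's exact test on the number of libraries with a peak, two-sided and adjusted by the Benjamini-Hochberg method over 42611 elements, 0% of all elements were called lower and 0% higher at a threshold of 0.05, and 0 of 17 elements of the pathway genes. Over all elements 757 had an unadjusted p under 0.05, and the smallest adjusted p was 0.0769. That was the value of 6 elements split 10 of 10 against 0 of 10, none of them at the pathway genes, so no split of these libraries could pass and the count of 0 says nothing about the ros1-4 allele. The CLSY3 element below the gene was listed in 10 of 10 libraries with ros1-4 and in 7 of 10 without it (Fisher's exact test, p = 0.211, adjusted p = 1). The NRPD1 element was listed in 10 and 8 of 10 (exact p = 0.474, adjusted p = 1), and that of DCL3 in 8 and 9 of 10. A test on presence alone cannot show a change in height at the elements that all 20 libraries had, such as those of RDR2, AGO4, AGO6, CLSY1 and IDN2.

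The other genes of the pathway on a list of 21 were read in the same way. In root against Col-0 shoot 0 of 21 had a lost element, against 8.34% of 27432 protein-coding genes, and 5 a gained one, against 18.7%. CLSY2, a further CLSY gene, had folds of 2.81 and 3.00 in root, HEN1, which methylates the ends of small RNAs, 4.84 and 3.35, and DRM2, the methyltransferase of the pathway, 2.97 and 3.12. DRM1, its relative, had 3.90 and 2.83, and MORC6, an ATPase of gene silencing, 3.51 and 3.52. All of these folds were lower than those of the main elements of AGO6 and IDN2 in the same root lists, which were 8.96 or more, while the IDN2 element at GAMMA CAL2 had 3.11 and 3.58. In root against stem 5 of 21 had a gained element, against 20.4% of protein-coding genes. They were CLSY2, DRM2, DRM1, MORC6 and KTF1, a partner of RNA polymerase V. In stem against Col-0 shoot none of the 21 had a lost or a gained element, against 10.5% and 6.76% of protein-coding genes. In ros1-4 against Col-0 shoot 6 of 21 had a gained element, against 6.54% of protein-coding genes, and 0 a lost one, against 2.37%. The 6 were CLSY2, HEN1, DRM2, DRM1, SUVH2 and FDM2. SUVH2, a methyl-DNA binding partner of RNA polymerase V, had folds of 3.66 and 4.21 in ros1-4, and FDM2, a relative of IDN2, 4.75 and 3.89. For CLSY2, HEN1, DRM2 and DRM1 the element was gained in root as well, and the same 2 Col-0 shoot libraries lack it in both comparisons. In rdd-2 5 of these 6 genes, all but DRM1, had a gained element, against 5.73% of protein-coding genes, and in drdd 1 of 21 had one, against 5.75%. The count was 6 of 21 in met1-9, against 18.4%, and 7 of 21 in gcn5, against 29.1%. It was 1 of 21 in nrpd1-3 and in sdg2-4, against 4.70% and 4.42%, and 0 in hda6, against 5.01%. The 21 genes had 0 elements lost in any comparison with Col-0 shoot, against 0.255% (gcn5) to 10.5% (stem) of protein-coding genes. In the test over 10 against 10 libraries, which could call none, 0 of 21 were called.

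Of the 13 other small RNA genes 3 had an element that Col-0 shoot listed and root did not, DCL2 with folds of 4.08 and 4.43 in shoot, AGO3 with 2.59 and 3.26 and AGO10 with 2.76 and 3.27. Stem also lacked these elements of DCL2 and AGO10, and at AGO3 it lacked another element, with folds of 3.04 and 3.26 in Col-0 shoot. SGS3 and AGO2 had a gained element in root, with folds of 3.51 and 4.46 and of 3.75 and 3.52. In stem RDR1 and AGO2 had a gained element, with folds of 5.36 and 5.60 and of 4.22 and 4.76. These 3 lost and 2 gained of 13 genes in each organ stand against 8.34% and 18.7% of protein-coding genes in root and 10.5% and 6.76% in stem.

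For the further AGO6 element, which of those gained in root was listed with the highest fold in any library (13.2, in hda6 ros1-4 replicate 2, from a wide peak with its summit outside the element), 0 other elements had the same presence over the 30 libraries. By the mean absolute difference of the rank of the peak in its list, with an absent peak at 0, the nearest elements lay closest to TIR1 (9.17 percentile points), AT2G41640 (9.18) and AT2G30730 (9.20). These ranks are those of wide peaks in 5 of the 7 libraries that list the element.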

How the data were processed

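Per the submitters' processing notes, FastQC, BWA, SAMtools, GATK and MACS2 were used with TAIR10; versions, settings, read shifting and pooling are not given in the sources used here. The authors deposited 1 narrowPeak list per library, each with a fold over background (a ratio), −log10 p and −log10 q per peak, and a score that equals 10 times the −log10 q within 1. The lowest deposited −log10 q was 2.00 to 2.30, and no list holds counts.

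Windows of 150 bp on either side of summits were taken in order of the within-list rank of −log10 q, and a window that overlapped an earlier one was dropped. This left 48484 windows, of which 42611 had a peak in both libraries of a group; an overlap of 1 bp counted. Genes came from RefSeq (TAIR10.1), matched by locus ID for all 10 genes, 12 markers and 34 others. Of the summits of Col-0 shoot replicate 1, 68.1% lay outside protein-coding genes in place and 34.1% to 48.4% after shifts of 500 to 5000 bp, so table and lists share coordinates. Promoter motifs were not analysed here.

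Groups came from the labels. Fisher's exact test was two-sided with Benjamini-Hochberg adjustment over 42611 elements at a threshold of 0.05, and 4 against 4 libraries cannot go below p = 0.0286 in it. The 10 genes and all lists were chosen with earlier results of these data known. Named were all 10 genes, for each the element of highest median rank, every element called in tissues, in the ros1-4 test or in 4 against 4 libraries, and other pathway genes with an element called in root against shoot or in the ros1-4 test. SUVH2, FDM2, KTF1 and the small RNA genes were added after their values were seen, as were DCL3 in gcn5 ros1-4 and the rule behind it. Libraries with the same replicate number were not paired: differences between replicates correlated over 0.1 in 3 of 105 pairs of groups, with correlations between -0.154 and 0.165. The code for the calls was run on simulated data with planted changes. More elements were split 10 of 10 against 0 of 10 there than in these data, so that run checked the code only. Python 3.11.15, numpy 2.4.6, pandas 2.3.3, scipy 1.17.1 and matplotlib 3.10.9 were used. Other settings tried were lists of equal length (17315 peaks), a −log10 q of at least 5, an overlap of 150 bp, the summit in the element, all windows, and each library left out.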

Additional observations from a re-analysis of the deposited data

How the results depend on the processing

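Counts of called elements at the pathway genes were recomputed for 17 results under 87 settings that leave out no library: 76 stayed within 1.5 times and 11 did not. Part of the 76 was fixed in advance. A gained or lost element has a peak in both libraries of a group, so the setting of all windows could not change those counts. The ros1-4 test called 0 elements under every setting, and many other counts were 0 that stayed 0. The 76 are therefore no measure of stability. With the summit in the element, chosen after seeing the data, root against shoot had 1 call instead of 3, gcn5 against Col-0 shoot 2 instead of 4, and the gcn5 allele over 4 against 4 libraries 0 instead of 1. With lists of equal length, stem against shoot had 1 instead of 2, rdd-2 1 instead of 0, gcn5 1 instead of 4, the gcn5 allele 0 instead of 1, and the rule for elements absent from or present in 1 group alone 2 instead of 4 (NRPD1 and CLSY1 in stem, DCL3 in gcn5 ros1-4 and AGO9 in gcn5). A −log10 q of at least 5 gave 1 in stem against shoot, and an overlap of 150 bp gave 0 instead of 1 in ros1-4 and in nrpd1-3. The CLSY3 peak was 145 bp wide in replicate 2 of both, so it could not overlap by 150 bp wherever it lay. For the other settings the cause was not tested, apart from the wide peaks that the summit setting leaves out.

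With 1 library left out, counts ran from 3 to 4 in root against shoot, 2 to 4 in stem against shoot, 6 to 7 in root against stem, 1 to 3 in ros1-4, 0 to 2 in rdd-2, 0 to 1 in drdd, 0 to 3 in met1-9, 1 to 3 in nrpd1-3, 4 to 5 in gcn5, 1 to 4 in hda6 and 1 to 2 in sdg2-4. For alleles over 4 against 4 libraries they were 0 to 0 for nrpd1-3, 1 to 2 for gcn5, 0 to 1 for hda6 and 0 to 0 for sdg2-4, and 0 to 0 for ros1-4 over 10 against 10. With 1 library standing for a group, more elements can be called.

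The replicate number as a block gave 0 calls in the ros1-4 test at the pathway genes and over all elements, and stratifying by background also gave 0. Without a block even 10 of 10 against 0 of 10 libraries had an adjusted p of 0.0769, so these counts of 0 say nothing about stability. For 2 against 2 libraries no blocked fit was made, since these calls have no test. Depth is not known, and an absent peak is one that the authors' threshold did not pass, which does not show closed chromatin.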
